A study of Mus musculus with 8 samples.

Results

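The cytosolic ribosomal protein genes encode the proteins that, together with ribosomal RNA, make up the small (40S) and large (60S) subunits of the ribosomes in the cytosol. They were taken here as every gene whose symbol is Rpl or Rps followed by a number, together with *Rplp0*, *Rplp1*, *Rplp2*, and *Rpsa*. Pseudogenes named -ps, the S6 kinase genes, and the paralogs *Rpl3l*, *Rpl22l1*, *Rpl39l*, *Rps27l*, and *Rpl7l1* were left out. This gave 81 of the 16994 genes measured, 34 of the 40S subunit and 47 of the 60S subunit. The 60S genes include the 3 genes of the stalk, the flexible arm that binds translation factors. The annotation lists 78 as protein coding, and it lists *Rps3a2*, *Rps3a3*, and *Rps4l* as processed pseudogenes, which their symbols do not show. Of the 81 genes, 79 passed a filter of a mean of at least 1 CPM (each count as a part per 1e6 of the scaled library total), as did 12999 of all genes. *Rps3a2* passed only through its level in the TKO left ventricle.

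The data were RNA-seq counts from hearts of male WT mice and of TKO mice, in which TIGAR, an enzyme that lowers fructose-2,6-bisphosphate, is disrupted in the whole body. Left ventricle was the reference tissue, and the infarct, border, and remote zones were taken 4 weeks after permanent ligation of the left anterior descending coronary artery at 16 weeks of age. Each genotype and region had 1 library, 8 in all, so no difference between a pair of libraries has a replicate check. RNA from 3 mice was pooled for each infarct zone library. The sources used here name neither the number of mice behind the other libraries nor whether the left ventricles came from sham-operated hearts. *Tigar* itself had 1066 to 2215 counts in the WT libraries and 51 to 87 in the TKO libraries. Total counts were 27429240 to 33799249 per library. The TMM factors that scaled these totals were 0.866 to 0.956, except 1.54 in the WT and 1.26 in the TKO infarct zone.

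Ribosomal protein genes are transcribed at a high and closely matched rate, since each ribosome takes up its proteins in fixed proportion. Most of their mRNAs begin with a C followed by an unbroken run of pyrimidines, the 5′ terminal oligopyrimidine (TOP) motif, through which mTORC1 and LARP1 control their translation. In heart muscle, some ribosomes carry RPL3L, a paralog found in heart and skeletal muscle, in place of RPL3.

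The start sites of 58 of the 81 genes were found in a RefSeq table of 27025 mouse promoters (GRCm38). At 13 of these 58 genes, or 22.4% (exact 95% interval 12.5 to 35.3), position +1 was a C followed by at least 4 more pyrimidines, against 3.01% of all genes in the table. With a run allowed to begin up to 2 bases away, the shares were 34.5% and 10.6%. A set of 7 starts is printed, all with such a run, which was more frequent in the family than in all genes but absent from most members. Some belong to genes that differed in the infarct zone. *Rpl34* has another listed start (chr3:130730323-130730352), with a run from 2 bases before it, that is not printed. Each line gives 15 bases before and 15 from the annotated start, 5′ to 3′ on the gene's strand, with capitals on a pyrimidine run read from a C within 2 bases of the start. Pyrimidines that stand before that C are left in lower case.
Rpl15 (chr14:18270972-18271001, minus strand): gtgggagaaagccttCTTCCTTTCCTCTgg
Rpl38 (chr11:114668565-114668594, plus strand): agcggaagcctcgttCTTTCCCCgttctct
Rps15a (chr7:118116133-118116162, minus strand): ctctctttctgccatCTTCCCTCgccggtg
Rps6 (chr4:86857353-86857382, minus strand): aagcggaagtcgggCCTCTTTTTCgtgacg
Rplp2 (chr7:141447636-141447665, plus strand): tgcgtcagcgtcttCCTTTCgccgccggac
Rpl34 (chr3:130730384-130730413, minus strand): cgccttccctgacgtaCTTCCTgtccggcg
Rps24 (chr14:24490663-24490692, plus strand): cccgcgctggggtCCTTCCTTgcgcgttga
In *Rpl15*, *Rpl38*, and *Rps15a* the C that opens the capitals stood at +1, with further pyrimidines directly before it. In *Rps6* and *Rplp2* that C stood 1 base before +1, and +1 was itself a C. In *Rpl34* and *Rps24* no C stood at +1 with such a run, and the first C in capitals was 1 base after and 2 bases before it. Over the 300 bases from 250 before to 50 after the start, read on both strands, CCGGAAG (a core to which ETS factors such as GABPA bind) occurred in 41.4% of the 58 genes and in 9.93% of all genes in the table. The TATA motif TATAAA occurred in 10.3% and 15.7%, and AAGATGGC, a core of the YY1 motif, in 8.62% and 3.19%. A match describes these letters and not a bound site.

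The family held 1.44% of all counts in the WT and 1.56% in the TKO left ventricle. In the infarct zone its share was 2.89% in WT and 2.06% in TKO, in the border zone 1.60% and 1.46%, and in the remote zone 1.63% and 1.39%. The share was therefore highest in the infarct zone of each genotype, and TKO was above WT in the left ventricle and below it in the other 3 regions. Transcripts of the 13 genes of mitochondrial DNA took 36.6% to 39.3% of counts outside the infarct zone, but 20.7% in the WT and 27.9% in the TKO infarct zone. Without them the family held 2.32% and 2.46% in the left ventricle and 3.64% and 2.85% in the infarct zone. The 40S genes contributed 40.8% to 41.4% of the family's counts in every library, so the balance of the subunits moved by less than 1 percentage point. 

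Levels within the family were compared per kilobase of transcript, as the mean of TMM-scaled CPM over the 8 libraries. *Rplp1*, a protein of the stalk, was highest at 807 CPM per kb, and *Rps15* (601), *Rps2* (581), and *Rpl41* (571) were also near the top. *Rplp0*, which anchors the stalk and served as an endogenous control for RT-qPCR in the study, ranked 11th at 468. *Rpl3*, *Rps24*, and *Rpl5* lay at 176, 82.5, and 9.1. At the bottom were *Rps12* at 0.41, with 0 to 15 counts in a library, and *Rpl10l*, a paralog of *Rpl10*, at 0.43, with 6 to 22 counts. *Rps12* encodes a protein of the 40S subunit and was nonetheless close to absent from these counts.

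The first comparison was of TKO with WT in each region. In the left ventricle 72 of the 79 genes were higher in TKO than in WT (51.4% of all genes), and the family's median ratio was 1.11. The median of all genes was 1.01. In the infarct zone 78 of 79 had a ratio below 1 (49.2% of all genes), with a family median of 0.866. In the remote zone 77 of 79 were below 1 (52% of all genes) around a median of 0.865. In the border zone 54 were below and 25 above 1 (50.3% and 49.7% of all genes), around 0.970. Set against the median of all genes, which does not depend on how the libraries are scaled, the family's median was 1.10 in the left ventricle. It was 0.862, 0.971, and 0.872 in the infarct, border, and remote zones. The median absolute deviation of their log2 ratios was 0.059 to 0.069, against 0.158 to 0.239 for all genes. All genes include those near 1 CPM, whose ratios carry more counting error, and genes of matched level were not compared. By SD the left ventricle went the other way, at 1.10 for the 79 members and 0.720 for all genes. In the infarct, border, and remote zones the SD was 0.425, 0.396, and 0.311, against 0.596, 0.620, and 0.565 for all genes. Because the genes of a pair of libraries share those libraries, they are not replicates of a genotype.

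**Figure D1:**
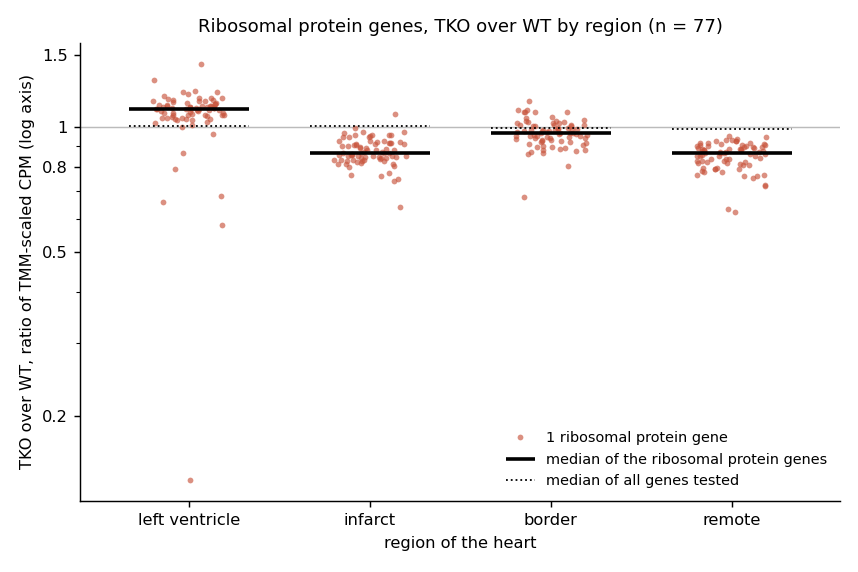
TKO over WT ratio of TMM-scaled CPM (log axis) of 77 ribosomal protein genes, those with no library under 100 counts, by region, with 1 library per genotype and region. Thick lines are the family medians and dotted lines the medians of all 12999 genes. The family lies above its dotted line in the left ventricle and below it in the infarct and remote zones, and the lowest point is *Rps7* at 0.140 in the left ventricle.

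The shifts were small for single genes. A TKO level at least 25% above WT was reached by 4 genes in the left ventricle, *Rps3a2* among them, and one lower by the same fold by 5 (14.7% and 18% of all genes). These numbers were 0 and 8 in the infarct (20.8% and 17.5%), 0 and 2 in the border (11.2% and 17.1%), and 2 and 17 in the remote zone (8.8% and 14.7%). TKO was below WT in all 3 zones after infarction in 53 of the 79 genes (26.3% of all genes), and 48 of these were above WT in the left ventricle (12.8% of all genes). The other 5, *Rpl12*, *Rpl29*, *Rpl34*, *Rps3a1*, and *Rps7*, were below WT in all 4 regions (13.5% of all genes). Each shares much of its sequence with a pseudogene that held more counts in the TKO than in the WT left ventricle. That was not particular to these 5. *Rps2-ps10*, which shares sequence with *Rps2*, had 148 and 2306 counts, and *Rpl28-ps1*, which shares sequence with *Rpl28*, had 980 and 1423. Others did not, such as *Rpl31-ps8* of *Rpl31* (1314 and 1296). Summed with *Gm10275*, *Rpl12* had 4712 counts in the WT and 5167 in the TKO left ventricle, so that sum was not lower there. *Gm13841*, which shares sequence with *Rpl29*, had 13 and 594 counts, and *Rpl34-ps1*, which shares sequence with *Rpl34*, had 37 and 150. Summed with the genes that share their sequence, *Rpl29* had 5653 and 4358 counts and *Rpl34* had 3232 and 2773. Those sums thus stayed lower in the TKO left ventricle. The medians of the subunits were close in every region, with 1.12 for 40S and 1.10 for 60S genes in the left ventricle and 0.853 and 0.870 in the infarct zone.

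Across regions, none of the 79 genes differed between genotypes by edgeR's quasi-likelihood test with region as a block and Benjamini-Hochberg adjustment over all genes, which called 18 genes in all (0.138%). The regions stand in for replicates in this test, so it bears on regions and not on mice. The 3 zones are parts of infarcted hearts and may share mice, which the sources used here do not name by library. The unadjusted p was under 0.05 for 5 members (16.2% of all genes), and the Wald test of DESeq2 also called 0 (2.63% of all genes). The median log2 difference of the members was -0.09, against -0.00240 for all genes. It was -0.16 without the WT and -0.15 without the TKO left ventricle, -0.04 without either infarct library, and -0.03 without either remote library. Among members with no library under 100 counts, the lowest included *Rps7* (-0.72), *Rpl3* (-0.41, SE 0.13, adjusted p = 0.236 by edgeR), *Rpl12* (-0.36), and *Rpl29* (-0.25). The values of *Rps7*, *Rpl12*, and *Rpl29* leave out the counts of the pseudogenes that share their sequence. The highest included *Rpl36* (0.08), *Rplp2* (0.03), *Rps13* (0.03), and *Rpl24* (0.03). 

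*Rpl3*, a 60S protein that reaches close to the peptidyl transferase centre, had 168 CPM in the left ventricle of both genotypes. After infarction its levels in WT and TKO were 411 and 304 CPM in the infarct, 269 and 182 in the border, and 248 and 157 in the remote zone. All 3 zones were thus lower in TKO. In the left ventricle the 95% interval of the TKO over WT ratio ran from 0.960 to 1.04. The ratio was 0.740 (0.722 to 0.758) for the infarct, 0.676 (0.654 to 0.700) for the border, and 0.633 (0.611 to 0.657) for the remote zone. The intervals cover counting error only, because they rest on 1 library per genotype. They also treat each read as a separate molecule, which cannot be checked for reads that carry no molecular identifier. 

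The second comparison was of each zone with the left ventricle of the same genotype. These ratios share the left ventricle library, so their values are given side by side. In WT the family's median was 1.15 in the infarct, 1.03 in the border, and 1.09 in the remote zone, with 58, 49, and 64 of 79 genes above 1 (50.8%, 50.4%, and 52.4% of all genes). In TKO the medians were 0.916, 0.900, and 0.855, with 58, 67, and 72 genes below 1 (49.2%, 51.5%, and 52.7% of all genes). All 3 zones thus lay above the left ventricle in WT and below it in TKO, except that with libraries scaled to total counts alone the infarct zone median became 1.33 in TKO (2.04 in WT). The TKO left ventricle library enters all 3 TKO ratios, and it was also the library with the highest family median against its WT counterpart. Over the left ventricle, genes at least 25% higher, and genes lower by the same fold, numbered 26 and 5 in the WT infarct zone (37% and 35.7% of all genes), 3 and 3 in the WT border zone (22.5% and 17.8%), and 12 and 2 in the WT remote zone (18.9% and 14.5%). For TKO they numbered 6 and 17 (35.7% and 32.5%), 4 and 7 (20.5% and 14.5%), and 3 and 16 (18% and 13.7%).

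**Figure D2:**
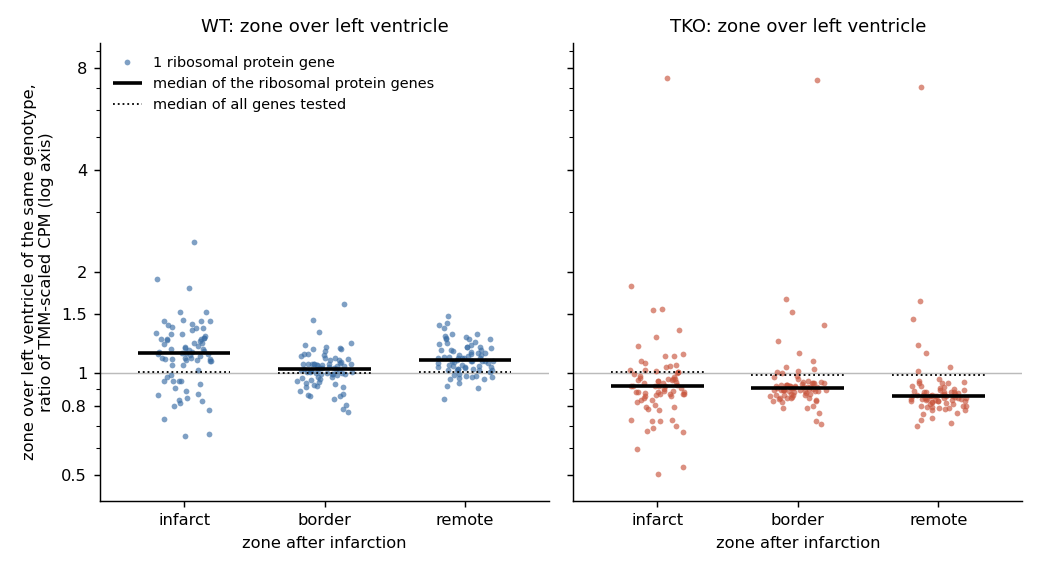
Ratio of each zone to the left ventricle within a genotype (TMM-scaled CPM, log axis) for the same 77 ribosomal protein genes, WT in the left panel and TKO in the right. Thick lines are family medians and dotted lines medians of all genes. With this scaling the WT medians lie above and the TKO medians below the dotted lines (the TKO infarct median is 1.33 with total counts), and the isolated TKO point above 7 is *Rps7*, whose count was low in the TKO left ventricle.

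Taking both genotypes together, the infarct zone differed from the left ventricle in 13 of 79 genes by edgeR's test, 4 of them higher and 9 lower, whereas 56.8% of all genes passed the same threshold (28.2% higher and 28.6% lower). The 2 genotypes stand in for replicates here. The members' median log2 difference was 0.02, the same as that of all genes. The Wald test of DESeq2 called 5 higher and 13 lower (27% and 28.4% of all genes). Total-count scaling raised the median of all genes to 0.71 and that of the members to 0.71, and the split became 66 higher and 1 lower (60.5% and 8.34% of all genes). The 4 genes called higher were called under either scaling, whereas of the 9 called lower *Rps3a3* alone was still called lower. Changes are therefore given relative to the median of all genes. *Rps3a3*, listed as a pseudogene, had 567 counts in the TKO left ventricle and 37 to 136 in the other libraries. Its 78 and 51 counts in the infarct zone lay within that range. The log2 difference of -2.61 for *Rps3a3* became -1.66 without the TKO left ventricle library. In the border zone 0 members were called (0.715% of all genes), with 4 at an unadjusted p under 0.05 (17.9%) and 1 called by DESeq2 (4.43%). In the remote zone 0 were called (0% of all genes), with 3 at an unadjusted p under 0.05 (10.6%) and 1 called by DESeq2, which called 162 genes in all.

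**Figure D3:**
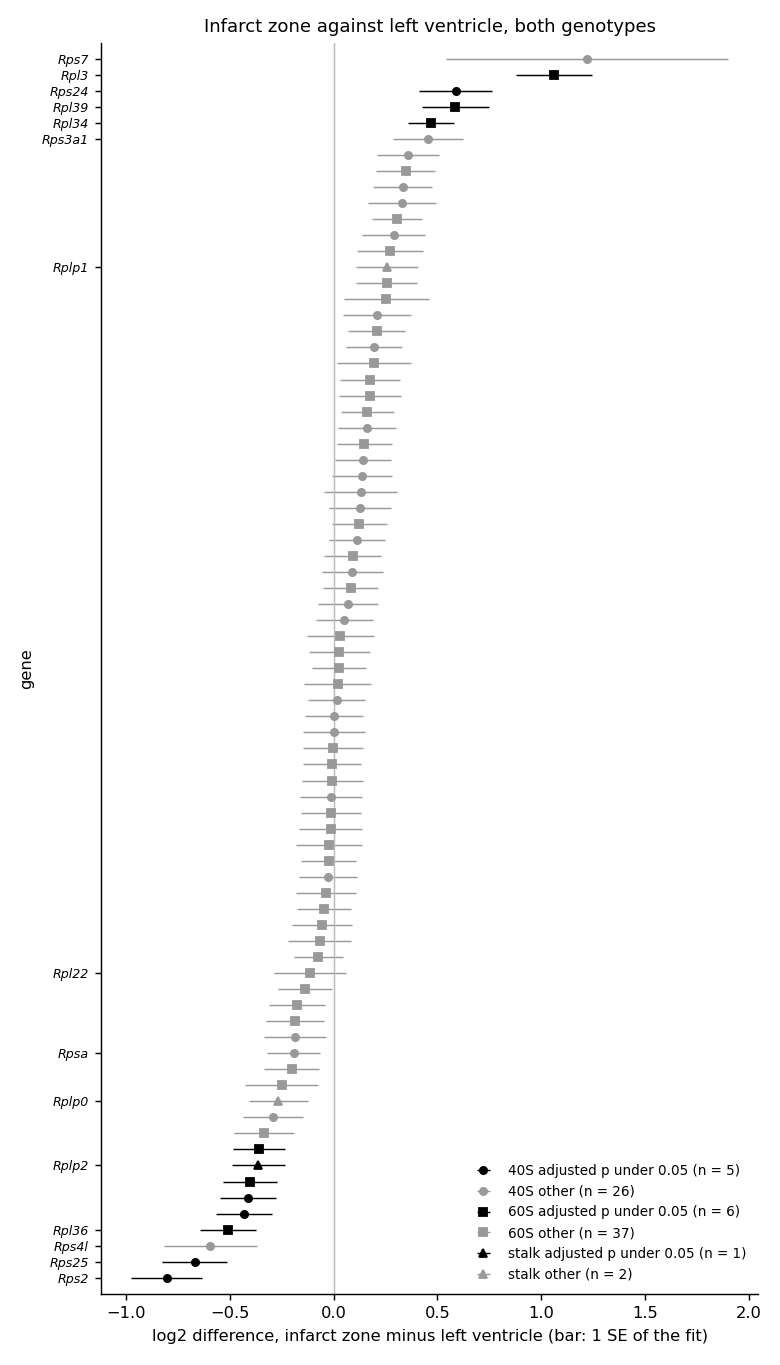
Log2 difference of the infarct zone from the left ventricle in both genotypes for the same 77 genes, from edgeR's additive fit, with bars of 1 SE. Black points passed an adjusted p of 0.05, circles are 40S, squares 60S, and triangles stalk genes, and the axis names some of the genes described in the text. Most points lie near 0, with *Rpl3* highest among those that passed and *Rps2* lowest.

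Of the genes called, *Rpl3* rose most, with a log2 difference of 1.06 (SE 0.18, adjusted p = 0.00371 by edgeR). Both infarct libraries, at 411 and 304 CPM, lay above the other 6, which reached 269 at most. *Rps24*, a 40S protein needed for maturation of 18S rRNA and mutated in some cases of Diamond-Blackfan anemia, had 99.3 and 129 CPM in the WT and TKO left ventricle. It had 189 and 156 in the infarct, 131 and 119 in the border, and 128 and 113 in the remote zone. The infarct libraries did not overlap with the others, and the log2 difference was 0.59 (adjusted p = 0.0288).

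*Rpl39*, which lies in the wall of the peptide exit tunnel, had 86.6 and 97.9 CPM in the left ventricle, 154 and 126 in the infarct, 124.9 and 101 in the border, and 122 and 92.5 in the remote zone, with WT before TKO in each. The infarct libraries lay above the other 6, the WT border library only narrowly below the TKO infarct library (log2 difference 0.59, adjusted p = 0.0211 by edgeR). *Rpl34*, another 60S protein, had 117 and 101 CPM in the left ventricle, 167 and 136 in the infarct, 136 and 126 in the border, and 149 and 123 in the remote zone. Here the groups overlapped, since the WT remote library exceeded the TKO infarct library. Its log2 difference was 0.47 (adjusted p = 0.0118 by edgeR), the smallest of those called higher. *Rps7* had a larger difference (1.22) with an adjusted p of 0.167 in the same edgeR fit, and its count in the TKO left ventricle lay far below the rest. *Rps3a1*, next below *Rpl34*, was not called either (0.45, adjusted p = 0.0561).

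Against the family's own median, an infarct over left ventricle ratio at least 25% higher in both genotypes was found for 3 genes, *Rpl3*, *Rpl39*, and *Rps24* (28.5% of all genes, against the median of all genes). Relative to the family median, the WT and TKO folds were 2.14 and 1.98 for *Rpl3*, 1.55 and 1.40 for *Rpl39*, and 1.66 and 1.32 for *Rps24*. These values do not depend on the scaling of libraries. In 11 genes the ratio was lower than the family median by the same fold in both genotypes (27.8% of all genes).

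*Rpl3l* (chromosome 17 from 24727820 to 24736143), the muscle paralog outside the family as defined, was lower in the infarct zone than in the left ventricle, where *Rpl3* (chromosome 15 from 80077791 to 80091868) was higher. It had 7634 counts in the WT and 8287 in the TKO left ventricle, 1376 and 3697 in the infarct, 4023 and 7636 in the border, and 5344 and 8099 in the remote zone. WT was lowest in the infarct zone and below TKO in all 4 regions. *Rpl3* had 4591 and 4343 counts in the left ventricle, 17370 and 10863 in the infarct, 8286 and 5396 in the border, and 7534 and 4721 in the remote zone. Scaled to CPM, its level was highest in the infarct zone of each genotype, whereas in the TKO remote zone it lay below the TKO left ventricle (157 against 168 CPM).

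Per kilobase of transcript, *Rpl3l* made up 62.0% of the pair in the WT and 65.2% in the TKO left ventricle. Its share was 7.22% and 25.1% in the infarct, 32.3% and 58.2% in the border, and 41.1% and 62.8% in the remote zone. In each genotype the share was lowest in the infarct zone, followed by the border zone, the remote zone, and the left ventricle, and it was higher in TKO than in WT in every region. The share rests on counts within a library and needs no scaling. Infarct against left ventricle, the log2 difference of *Rpl3l* was -2.34 (SE 0.34, adjusted p = 0.0021 by edgeR). For TKO against WT it was 0.86 (adjusted p = 0.203 by edgeR and 0.0075 by the Wald test of DESeq2). For *Rpl22* and its paralog *Rpl22l1*, the paralog was 9.74% to 17.4% of the pair per kilobase in the 8 libraries, and neither was called in the infarct zone.

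**Figure D4:**
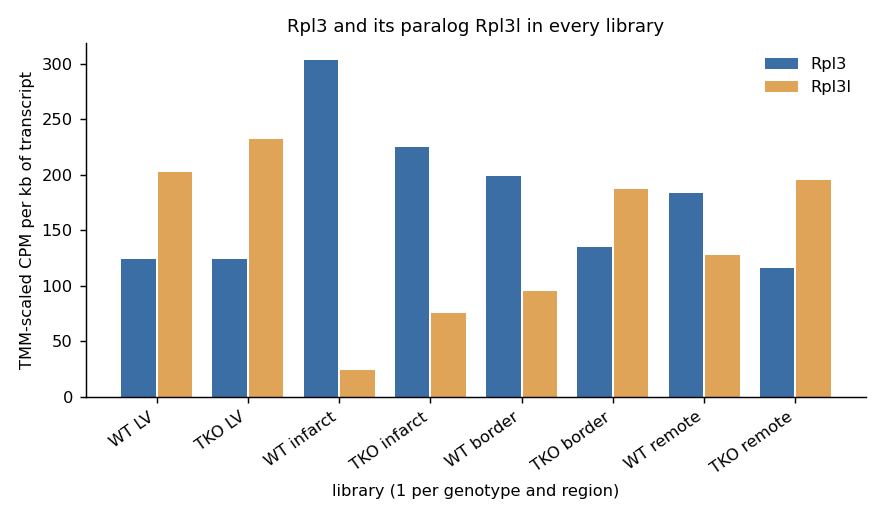
TMM-scaled CPM per kb of transcript of *Rpl3* and *Rpl3l* in each of the 8 libraries. *Rpl3* is tallest and *Rpl3l* shortest in the WT infarct zone (304 and 23.7 CPM per kb), and *Rpl3l* exceeds *Rpl3* in both left ventricles and in the TKO border and remote zones.

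Markers of heart muscle and of several other cell types moved in the infarct zone, where 28.2% of all genes were called higher and 28.6% lower. In bulk RNA fewer cells of a type and less RNA per cell cannot be told apart. All 12 cardiomyocyte markers were lower in the infarct zone by edgeR's test, with a summed level of 16229 CPM in WT and 32986 in TKO, against 53144 to 72825 in the other 6 libraries. Of 10 fibroblast markers 9 were higher, with a sum of 8718 and 7231 CPM in the infarct zone against 1040 to 3203 elsewhere. All 10 macrophage markers (sum 1764 and 1318 against 372 to 666 CPM), 7 of 8 lymphocyte markers (94.9 and 54.9 against at most 27.8), and 5 of 5 red blood cell markers were also higher. Of 8 endothelial markers 1 was higher and 1 lower, with a sum of 700 and 764 CPM in the infarct zone against 737 to 832 elsewhere. Of 4 adipocyte markers 1 was lower. In the border zone, the fibroblast sum was 3203 in WT and 1801 in TKO. The fibroblast markers *Thbs2*, *Col1a1*, and *Col1a2*, and *Ptprc* of the lymphocyte list, were called higher there, and no other listed marker was called (0.715% of all genes). In the remote zone none of the listed markers was called, nor was any other gene (0% of all genes). The part of these cells in the levels of the ribosomal protein genes was not tested.

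Of the 9 genes called lower in the infarct zone, 5 were 40S and 4 were 60S or stalk genes. *Rps2*, a 40S protein near the mRNA entry channel, had 764 and 847 CPM in the WT and TKO left ventricle, 500.0 and 425 in the infarct, 586 and 600 in the border, and 745 and 617 in the remote zone. Both infarct libraries were below all others. The log2 difference was -0.80 (SE 0.17, adjusted p = 0.00800 by edgeR). *Rps25*, a 40S protein used by several internal ribosome entry sites, had 16.9 and 16.8 CPM in the infarct zone against 22.1 to 30.4 elsewhere, so these also did not overlap (log2 difference -0.67, adjusted p = 0.0113 by edgeR). *Rpl36*, of the 60S subunit, had 141 and 152 CPM against 177 to 226 elsewhere (log2 difference -0.51, adjusted p = 0.0178 by edgeR). *Rps4l*, listed as a pseudogene, was at -0.59 and was not called (adjusted p = 0.0601). Scaled to total counts, the differences of *Rps2*, *Rps25*, and *Rpl36* became -0.12, 0.01, and 0.17, against 0.71 for all genes.

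Also called lower, *Rps3a3*, *Rps13*, *Rpl24*, *Rpl27*, and *Rplp2* had adjusted p values of 0.0166 to 0.0498 in the same fit. With each of the 8 libraries left out in turn, *Rpl3*, *Rpl34*, and *Rps2* stayed called in all 8 fits. *Rps25* stayed called in 7 of the 8 fits, *Rpl39* and *Rps3a3* in 6, *Rpl36* in 5, *Rps24* and *Rpl24* in 2, *Rps13* and *Rpl27* in 1, and *Rplp2* in 0. The direction was kept for all 13 in all 8 fits. By level alone, both infarct libraries lay above the other 6 in 7 members (32.9% of all genes) and below them in 11 (31.1%).

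*Rplp0* had 686 and 718 CPM in the WT and TKO left ventricle, 607 and 561 in the infarct, 628 and 609 in the border, and 661 and 617 in the remote zone. With this scaling both infarct libraries were the lowest. The differences were not called (infarct against left ventricle log2 -0.27, adjusted p = 0.156; TKO against WT -0.05, adjusted p = 0.835, both by edgeR). Scaled to total counts its level was instead highest in the infarct zone, at 937 CPM in WT and 706 in TKO against 544 to 622 in the other 6 libraries. Its partners in the stalk diverged: the infarct zone difference was 0.26 for *Rplp1* (adjusted p = 0.179 by edgeR) and -0.36 for *Rplp2* (adjusted p = 0.0498), and *Rpsa*, the laminin receptor and 40S protein, was at -0.19 (adjusted p = 0.235).

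The third comparison asked whether the genotype difference of a region departed from that of the other regions. For the infarct zone 0 of 79 genes departed by edgeR's test (0.00769% of all genes), with 1 at an unadjusted p under 0.05 (7.83%) and 0 called by DESeq2 (2.22%). For the left ventricle, a test added after the values were seen, 2 genes passed, 1 upward and 1 downward (0.646% of all genes, 0.223% upward and 0.423% downward). The log2 departure was positive in 75 of 79 members, with a median of 0.30 against -0.01 for all genes. The gene that passed downward was *Rps7* (-2.72, adjusted p = 0.0206 by edgeR), which rests on the count of 1 library. The other was *Rps3a2*, which entered the test only through its count in the TKO left ventricle, so its departure there was fixed by the filter and is not a result. Adipocyte markers moved in the same contrast: *Adipoq* and *Cidec*, 2 of the 4 tested, departed downward, and the 6 listed markers summed to 122 CPM in the WT and 43.9 in the TKO left ventricle, against 35.1 to 63.5 elsewhere. Their part in the levels of the ribosomal protein genes was not tested.

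In the TKO left ventricle *Rps7*, a 40S protein that also binds MDM2, had 754 counts, against 5704 in the WT left ventricle and 6172 to 10221 in the other 6 libraries. The processed pseudogene *Rps7-ps3* had 2011 counts in the TKO left ventricle, 10 in the TKO border zone, and 0 in the other 6 libraries. Likewise *Rps3a1*, a 40S protein, had 7059 counts in the TKO left ventricle against 10925 to 20787 elsewhere. *Rps3a2* had 2592 counts there and 0 to 42 elsewhere, and *Rps3a3* had 567 there and 37 to 136 elsewhere. Summed, *Rps3a1*, *Rps3a2*, and *Rps3a3* had 10218 counts in the TKO and 11050 in the WT left ventricle. *Rps7* and *Rps7-ps3* summed to 2765 and 5704, so that sum was still lower in TKO.

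These genes have nearly the same sequence, and reads from the shared stretches match either. Over the 582 coding bases of *Rps7* (chromosome 12), *Rps7-ps3* (chromosome X) differed at 3 positions, and over the 792 coding bases of *Rps3a1* (chromosome 3), *Rps3a2* (chromosome 14) differed at 4. A stretch of 60 coding bases of each is shown, bases 1 to 60 for *Rps7* and 609 to 668 for *Rps3a1*, counted from the A of the start codon, with capitals at the positions where the pair differs.
Rps7: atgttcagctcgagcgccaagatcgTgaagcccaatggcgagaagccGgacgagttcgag
Rps7-ps3: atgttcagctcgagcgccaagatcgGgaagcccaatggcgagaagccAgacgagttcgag
Rps3a1: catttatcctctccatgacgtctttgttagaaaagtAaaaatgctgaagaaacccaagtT
Rps3a2: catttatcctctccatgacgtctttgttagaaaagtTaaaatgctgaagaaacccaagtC
These stretches were picked as those with the most differences, and a read that covers no differing position of a pair matches either gene.

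The same holds widely in the family. By stretches of 31 bases, the length that Kallisto indexes, 77 of the 81 genes shared at least 100 with another annotated gene, and a median of 71.7% of a gene's stretches were its own, down to 5.9% for *Rpl36*. Outside the family, 69 genes of the table shared at least 50% of their stretches with a member, for 39 members. The percentage is of the stretches in a gene's longest transcript that holds any shared stretch, not of the whole gene. Most are pseudogenes, but *Uimc1*, a protein-coding gene of another kind, is among them. Its 60.9% shared with *Rpl29* is of such a transcript, while its 358 to 892 counts are of the whole gene. *Rpl5*, which carries 5S rRNA into the 60S subunit with RPL11, had 452 to 926 counts, whereas the pseudogene *Gm15500* with the same 891 coding bases had 9105 to 16891. *Rpl12*, at the base of the stalk, had 240 to 695 counts and *Gm10275*, with the same 495 coding bases, had 4391 to 10722. The levels of *Rpl5* and *Rpl12* given above are therefore uncertain. 

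With counts of these 69 genes summed into their members, an alternative chosen after seeing the data, 0 members departed in the left ventricle. Over all 12974 genes of that fit, 82 departed there and 7386 were called in the infarct zone. The infarct zone calls among members were then 14 (5 higher and 9 lower), and the medians of TKO over WT moved by less than the spread of the members. Summing left *Rpl3* at 1.06 (adjusted p = 0.00357 by edgeR) and *Rps2* at -0.72 (adjusted p = 0.00972).

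**Figure D5:**
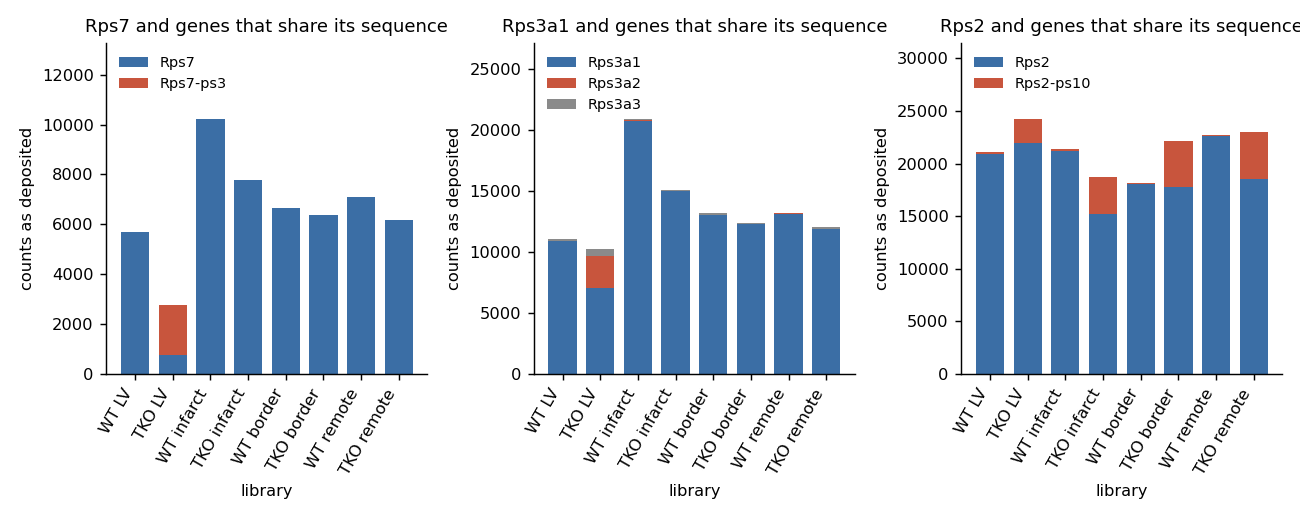
Deposited counts in the 8 libraries, stacked, for *Rps7* with *Rps7-ps3*, *Rps3a1* with *Rps3a2* and *Rps3a3*, and *Rps2* with *Rps2-ps10*. The red segments of the left and middle panels are tall only in the TKO left ventricle, and that of the right panel in all 4 TKO libraries.

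*Rps2-ps10* differed by genotype in each region. It had 148 counts in the WT left ventricle and 217, 96, and 97 in the WT infarct, border, and remote zones, and 2306, 3513, 4364, and 4429 in the TKO libraries in the same order. The genotypes did not overlap, and the log2 difference was 4.82 (adjusted p = 0.006 by edgeR). Of *Rps2* and *Rps2-ps10* together, the pseudogene held 0.426% to 1.02% in WT, 9.52% in the TKO left ventricle, and 18.8% to 19.7% in the other TKO libraries. *Rps2* itself, which shares sequence with it, had ratios of TKO to WT of 1.11, 0.851, 1.03, and 0.828 in the same 4 regions. Summed with the 7 genes outside the family that share its sequence, it had 21103, 21399, 18166, and 22784 counts in WT. The TKO sums were 24495, 19081, 22631, and 23539 in the same order. Relative to the scaled library totals, the sum was higher in TKO in all 4 regions, unlike *Rps2* alone.

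Other genes of the translation machinery were counted from fixed lists. Over the 6 lists of elongation factors, initiation factors, other TOP mRNAs, assembly factors, RNA polymerase I, and mTORC1, 0 of 114 genes differed between genotypes by edgeR's test (0.138% of all genes). An unadjusted p under 0.05 was found for 8 (16.2% of all genes), and DESeq2 called 1 (2.63% of all genes). In the infarct zone 60 of the 114, or 52.6%, were called, against the 56.8% of all genes. This count includes *Tsc2*, which passed the filter only through the infarct libraries. Of all genes, 28.6% were called lower and 28.2% higher there, and the counts of each list stand beside these shares. In the infarct zone 26 of 35 initiation factors were lower and 0 higher by edgeR's test, with a median log2 difference of -0.48 against 0.02 for all genes and for the ribosomal proteins. *Eif4e*, which binds the mRNA cap, was at -1.16 (adjusted p = 0.00254), and *Eif1*, which scans for the start codon with the 40S subunit, at -1.08 (adjusted p = 0.00171). Of 34 ribosome assembly factors 13 were lower and 0 higher (median -0.27), among them *Bysl* at -0.76 and *Nop10* at -0.75. Of 13 genes of RNA polymerase I and its factors 4 were lower (median -0.30), which is near the 28.6% of all genes. *Rrn3*, which recruits the polymerase, was at -0.90 (adjusted p = 0.002 by edgeR). With total-count scaling the median of all genes lies at 0.71, so these list medians keep their distance below it but not their sign.

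Of 9 elongation factors 2 were higher and 4 lower in the infarct zone. Beside this and the counts that follow, 28.2% of all genes were called higher and 28.6% lower. *Eef1a1*, the general form, was at 1.32 (adjusted p = 0.0023 by edgeR) and *Eef1a2*, the form of muscle and nerve, at -1.86 (adjusted p = 0.00241), in opposite directions, as were *Rpl3* and *Rpl3l*. Of 8 other TOP mRNAs *Vim* (2.17) and *Pabpc1* (0.72) were higher and *Naca* (-0.56) was lower. In the mTORC1 list 7 of 15 were lower, among them *Mlst8* (-0.66) and *Akt1s1* (-0.65). *Tsc2*, the only other gene called in that list, had 267 and 102 counts in the WT and TKO infarct zone and 0 in each of the other 6 libraries. It passed the filter only through the infarct libraries, so its call as higher there was fixed by the filter and is not a result. *Fau*, the source of RPS30, was at 0.27 (adjusted p = 0.173 by edgeR) and *Rack1*, a scaffold protein on the 40S subunit, at 0.06. Of 12 genes often used as references 4 were higher and 6 lower, including *Actb* at 1.01 and *Gapdh* at -1.17 (adjusted p = 0.00352 and 0.00676 by edgeR), while *Rplp0* was not called.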

How the data were processed

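RNA-seq libraries of 8 mouse heart samples were analysed, 1 per genotype and region. After trimming with Trim Galore 0.6.5, the authors quantified transcripts of mm10 by pseudoalignment in Kallisto 0.46 and passed them through tximport. The counts per gene that they deposited are estimates in whole numbers, without normalization. These counts were used as deposited. Kallisto divides reads that match several transcripts among them, so the counts of near-identical genes are uncertain.

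TMM factors were computed over the 8 libraries from 12999 genes whose mean CPM was 1 or more. Genes were tested in R 4.3.3 with edgeR 4.0.16 (quasi-likelihood, additive in region and genotype, 3 residual degrees of freedom, or 2 with a departure term), with Benjamini-Hochberg adjustment over all genes and a threshold of 0.05. DESeq2 1.42.0 was an alternative. No replicate of a group exists. Ratios between 2 libraries took a prior count of 0.5, with exact (Clopper-Pearson) 95% intervals, and have no test. The fit was checked on simulated counts in which 200 genes were changed. Sequence sharing was counted on GENCODE M21 transcripts, and copies were genes of the table sharing at least 100 stretches of 31 bases with a member. These had to reach at least 50% of the stretches in the copy's longest transcript that holds any shared stretch.

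Alternatives were total counts, DESeq2 size factors, TMM over all genes, scaling without mitochondrial or without member genes, other filters, a prior count of 2, and each library left out. Named genes were the stalk genes and *Rpsa*, *Rpl3* and *Rpl22* with paralogs, the 5 highest and lowest members in the infarct and genotype contrasts, members called against the majority, members under 100 counts, and called list genes. Genes named for their copies, and *Rpl5*, *Rps25*, and *Tsc2*, were chosen after their values were seen. Values of some genes that these rules name are not reported here. The members and lists were chosen with earlier results of these data known. Python 3.11.15 with pandas 2.3.3 and matplotlib 3.10.9 made the tables and figures.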

Additional observations from a re-analysis of the deposited data

Results flagged for a closer look

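Across regions, the genotype difference of the left ventricle departed from that of the other 3 regions for *Rps7*, with a log2 departure of -2.72 by edgeR's test. Without the WT or the TKO border library the departure was not called, nor was it called with sequence-sharing genes summed.

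Outside the family, *Rps2-ps10* had 2306, 3513, 4364, and 4429 counts in TKO (left ventricle, infarct, border, remote), above the 96 to 217 counts of the WT libraries. *Rps7-ps3* had 2011 counts in the TKO left ventricle and 0 in every WT library. The part of read assignment among shared sequences in these counts was not tested.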

How the results depend on the processing

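No paired analysis was possible because each genotype and region has 1 library and no replicate number to share; region was already a block in the genotype test. Total-count scaling changed most values. It raised the infarct zone calls from 13 to 67 and turned the TKO infarct over left ventricle median from 0.916 to 1.33. It also moved the medians to 0.707 (TKO over WT, infarct zone), 0.906 (border zone), 2.04 (WT infarct over left ventricle), and 1.13 (WT border over left ventricle). Genes past the fold of 25% became 77 for TKO over WT in the infarct zone, and over the left ventricle 77 (WT infarct), 14 (WT border), 59 (TKO infarct), and 11 (TKO remote). Of all 12999 genes, 1214, 9273, 4178, 8094, and 2669 were then higher and 5926, 1554, 1349, 1442, and 1452 lower, in the same order. TMM over all genes gave 1.09 for WT infarct over left ventricle. The infarct zone calls were 14 with TMM over all genes, 12 at a mean CPM of at least 5, and 11 without a filter, where *Rpl27* (adjusted p = 0.0586) and *Rplp2* (0.0615) were no longer called by edgeR. Over all genes the same fits called 7377 of 12999, 6188 of 10281, and 7555 of 16964.

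Leaving out 1 library gave 6 to 16 calls in the infarct zone, with the fewest without the TKO border library, and moved the split most without the TKO left ventricle (10 higher and 2 lower). In the border and remote zones the members' medians, -0.05 and -0.04 with all 8 libraries, were both -0.20 without the WT left ventricle. Both were 0.11 without the TKO left ventricle. For the left ventricle departure, the members' median log2 value was 0.30 with all 8 libraries. With 1 library of the other regions left out it ranged from 0.27 to 0.36. With copies summed that departure gave 0 member calls, beside 82 of 12974 genes in all. The infarct departure cannot be estimated without an infarct library. DESeq2 called 1 member in the border and 1 in the remote zone. The members' median genotype difference, -0.09 on the log2 scale, ranged from -0.16 to -0.03 with 1 library left out. The genotype contrast and the infarct departure called 0 members under every alternative run.

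A fold of 1.5 left 5, 2, 1, and 4 genes for TKO over WT (left ventricle, infarct, border, remote), 9, 1, and 1 for the WT zones, and 9, 5, and 4 for the TKO zones. Of all 12999 genes, 769, 1321, 485, and 427 were higher and 1178, 828, 1117, and 855 lower for TKO over WT. For the WT zones 3708, 1620, and 1176 were higher and 3374, 859, and 719 lower. For the TKO zones 3424, 1387, and 1095 were higher and 2646, 648, and 600 lower. Without mitochondrial genes the family's share was 2.32%, 3.64%, 2.59%, and 2.68% in WT and 2.46%, 2.85%, 2.39%, and 2.26% in TKO, in the same order. The SD of members' log2 ratios with at least 100 counts per library was 0.385, 0.111, 0.114, and 0.117 for TKO over WT, 0.156 for WT remote over left ventricle, and 0.457, 0.393, and 0.391 for the TKO zones. The median absolute deviation was 0.0588, 0.0665, 0.0662, and 0.0686 for TKO over WT, 0.185, 0.0928, and 0.0968 for the WT zones, and 0.138, 0.0607, and 0.0634 for the TKO zones.

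Each region rests on 1 library per genotype, so neither differences between mice nor those of tissue sampling can be judged. Counts of 0 to 15 leave *Rps12* unmeasured.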
